A study of Homo sapiens with 18 samples.

Results

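The expression of 9 target genes of p53 (CDKN1A, MDM2, GDF15, BTG2, TP53INP1, ZMAT3, RRM2B, FDXR and SESN1) was examined in EA.hy926 cells, a line made by fusing human umbilical vein endothelial cells with the lung epithelial line A549. The genes were taken by symbol from a matrix of 62754 genes, and all 9 of 9 passed the filter on low counts, as did 15167 genes in all. They were put together to see whether a higher level of CDKN1A in cells given a non-targeting siRNA was shared by other p53 targets, so they were chosen by their siNT against Mock values, which are given without a test. Cells received transfection reagent without siRNA (Mock), non-targeting siRNA (siNT) or a pool of siRNA against ELMO1 (siELMO1), each siRNA at 10 nM. The methods name several non-targeting siRNAs and do not tie 1 of them to these libraries. RNA was taken 48 h later (0 h), or 24 h after poly(I:C), a synthetic double-stranded RNA that TLR3 binds, had been added at 1 µg/ml (24 h). There were 18 libraries, 3 for each of the 6 conditions. All cells were moved to low serum on the night before poly(I:C), and no group analysed here was kept as long without it, so the time with poly(I:C) and the time since transfection cannot be told apart.

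ELMO1 held 10 to 22 counts in the 6 siELMO1 libraries and 80 to 237 in the 12 others, with no overlap. Library totals ran from 40374756 to 73850946 estimated counts. Levels are given in CPM (the standard count relative to library size, with sizes scaled by the TMM factors of edgeR). Of 9 endothelial markers 8 reached 1 CPM in at least 1 library, EMCN being under it in all. Of 6 epithelial markers KRT8, KRT18 and EPCAM reached 1 CPM in at least 1 library, and 0 of 4 leukocyte markers did.

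p53 is a transcription factor that is held low by degradation and accumulates after DNA damage and other stress. It binds DNA as a tetramer, at sites made of a pair of half-sites, and raises genes that stop the cell cycle, repair DNA, change metabolism or start cell death. MDM2, itself a target, encodes the ubiquitin ligase that marks p53 for degradation and so closes a negative feedback loop. Many p53 targets, CDKN1A and GDF15 among them, are also raised by other stress factors, so that the level of 1 target is no measure of p53. mRNA levels do not show the amount or activity of the p53 protein, which were not analysed here.

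Matches to the p53 consensus near the start of each gene are shown first. The window ran 2500 bases to each side of the start of the transcript with the most counts, in GRCh38. A match had at least 18 of the 20 bases of a pair of half-sites of 10 bases with no spacer, and all 4 core C and G bases. The consensus is its own reverse complement, so that 1 scan reads both strands. Each sequence is given 5′ to 3′ on the strand of its gene, and capitals mark the 4 central bases of each half-site.
CDKN1A, chr6:36676449-36676468, plus strand: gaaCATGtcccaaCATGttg
MDM2, chr12:68808923-68808942, plus strand: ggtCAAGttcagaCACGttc
GDF15, chr19:18385308-18385327, plus strand: catCTTGcccagaCTTGtct
BTG2, chr1:203303642-203303661, plus strand: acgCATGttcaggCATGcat
ZMAT3, chr3:179070188-179070207, minus strand: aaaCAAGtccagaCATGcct
The sites of CDKN1A, GDF15 and BTG2 were upstream of the start used, and those of MDM2 and ZMAT3 were in introns. The ZMAT3 site matched at 20 of 20 bases, and the others shown at 18. RRM2B held a match of 19 of 20 bases in an intron, whose sequence is not shown. FDXR, SESN1 and TP53INP1 held none in this window, which says only that these letters are not there. The window of SESN1 lay around its start at 109009555, so its other start at 109094846 was not scanned. The FDXR transcript used held as little as 0.702% of the counts of its gene in a library. A match was thus found for 6 of the 9 genes, and for 3.73% of 15156 windows of tested genes. At 19 or more bases the share of windows was 0.541%. A match is a likeness in letters and no measurement of binding.

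The levels of the 9 genes, set per transcript length as TPM (counts over transcript length, scaled to 1 total in every library), spanned about an order of magnitude in Mock cells at 0 h. GDF15 was highest at 279 ± 8.9 TPM (mean ± SD, n = 3, as for all levels below), followed by CDKN1A at 205 ± 2.6 and MDM2 at 201 ± 11.6, whose ranges of 1 SD overlapped. RRM2B had 97.4 ± 1.1 TPM, FDXR 82.9 ± 2.4, ZMAT3 38.3 ± 0.9 and BTG2 29.4 ± 1.0. TP53INP1 at 23.1 ± 1.8 and SESN1 at 22.3 ± 0.3 were lowest and did not differ beyond their spread. All levels below are CPM, which suit comparisons of 1 gene between samples.

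**Figure D1:**
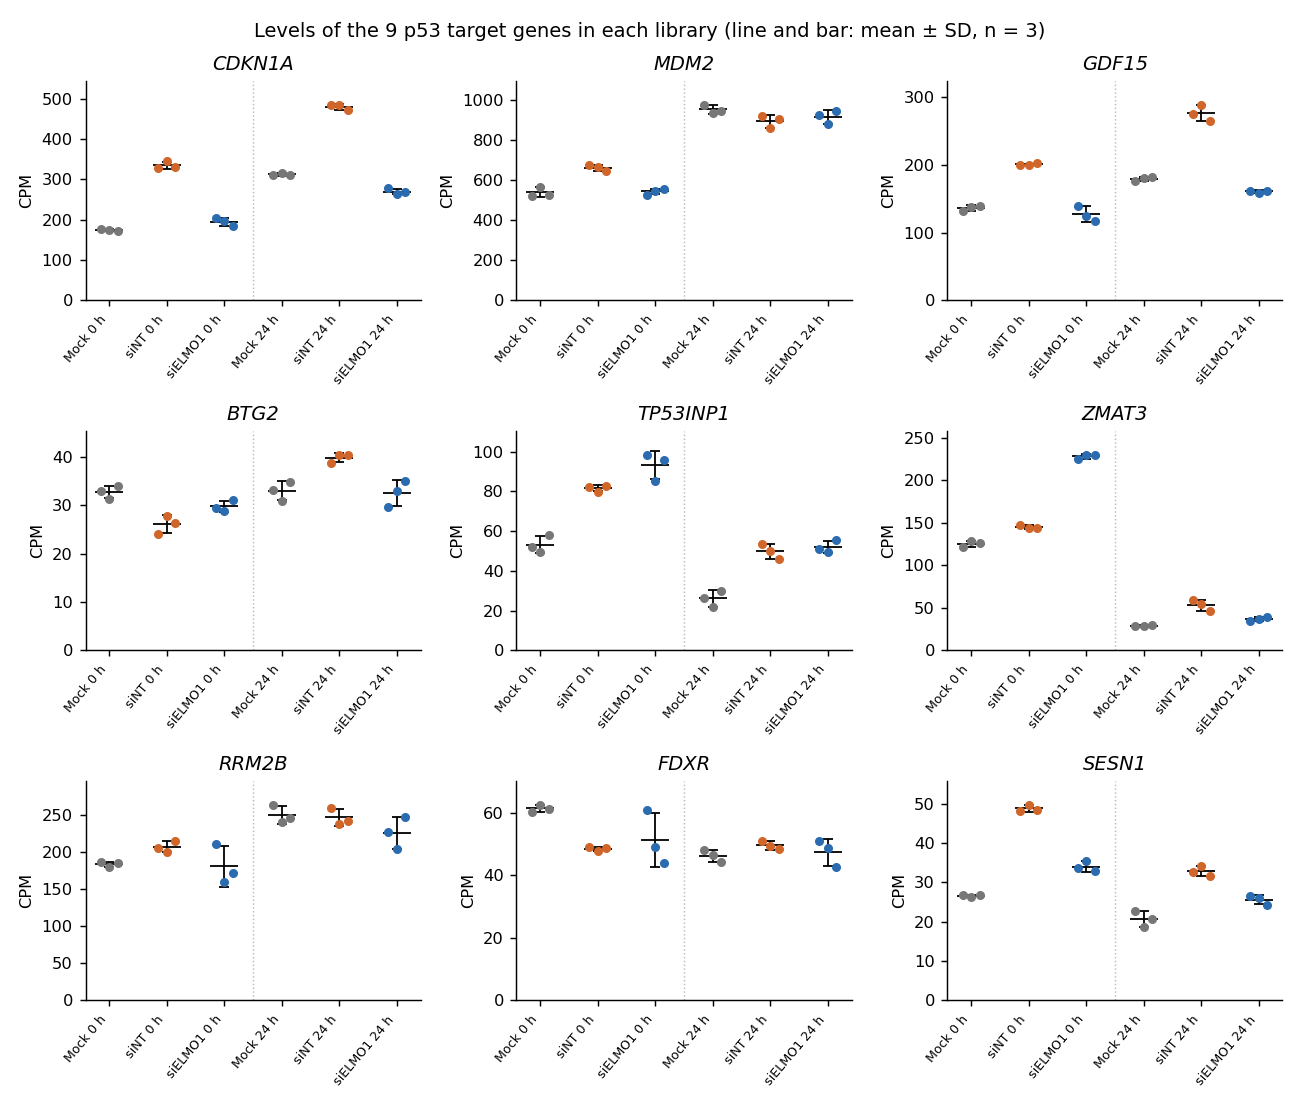
Each panel plots 1 gene, with its level in CPM on the y axis (from 0, each panel with its own scale) and the 6 conditions on the x axis. Points are libraries, and the line and bar give the mean ± SD (n = 3). CDKN1A, GDF15 and SESN1 stand highest in siNT at both times. TP53INP1, ZMAT3 and SESN1 are higher than Mock in both transfected groups at both times.

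The first question was whether the higher CDKN1A of siNT cells at 0 h was shared. CDKN1A encodes p21, an inhibitor of cyclin-dependent kinases that arrests the cell cycle. Its level was 177, 175 and 172 CPM in Mock libraries and 328, 345 and 330.1 CPM in siNT libraries. These ranges were far apart, and the means differed by 1.92-fold, a log2 fold change of 0.94 ± 0.04 (SE of the edgeR fit, as for all log2 fold changes below).

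SESN1 came nearest to it, followed by TP53INP1 and GDF15. SESN1, which encodes a sestrin that restrains mTORC1, had 26.7, 26.2 and 26.7 CPM in Mock libraries and 48.3, 49.7 and 48.4 CPM in siNT libraries. The log2 fold change of SESN1 was 0.88 ± 0.06. GDF15, a secreted stress cytokine of the TGF-β superfamily, was at 132, 138 and 139.8 CPM in Mock libraries and 199.7, 200.6 and 202 CPM in siNT libraries. Its log2 fold change was 0.56 ± 0.05, and for neither gene did the groups overlap.

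TP53INP1, a nuclear protein with roles in cell death and autophagy, had 52.2, 49.5 and 58.0 CPM in Mock and 82.2, 79.9 and 82.9 CPM in siNT, a log2 fold change of 0.62 ± 0.09. MDM2 differed less, with 522, 568 and 529 CPM in Mock libraries and 676, 666 and 647 CPM in siNT libraries. Its log2 fold change was 0.30 ± 0.04. ZMAT3, which encodes a zinc finger protein that binds RNA, was 0.21 ± 0.06 higher on the log2 scale, and RRM2B, a subunit of ribonucleotide reductase that supplies deoxynucleotides, 0.17 ± 0.08 higher.

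BTG2 and FDXR went the other way. BTG2, an antiproliferative gene that acts in mRNA turnover, was at 33.0, 31.4 and 34.0 CPM in Mock libraries and 24.2, 27.8 and 26.4 CPM in siNT libraries, a log2 fold change of -0.33 ± 0.07. FDXR, the mitochondrial ferredoxin reductase, was at 60.4, 62.5 and 61.4 CPM in Mock and 49.0, 47.6 and 48.7 CPM in siNT, a log2 fold change of -0.34 ± 0.09. In all, every siNT library was above every Mock library for 7 of the 9 genes and below for 2. Of all genes tested, 35.4% had every siNT library above and 30.4% every siNT library below, and since these values chose the genes nothing is read from the count.

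At 24 h the pattern was partly another one. The study reports massive cell death among siNT cells by then, much less among Mock cells, and inhibited apoptosis in siELMO1 cells. What part this had in the levels at 24 h was not tested. CDKN1A was again higher in siNT, with 310.4, 315 and 311 CPM in Mock and 484, 486 and 472 CPM in siNT, a log2 fold change of 0.62 ± 0.04. GDF15 had a log2 fold change of 0.62 ± 0.05 and SESN1 of 0.67 ± 0.06. TP53INP1 and ZMAT3 stood further from Mock than at 0 h. TP53INP1 was at 26.6, 21.8 and 30.0 CPM in Mock and 53.6, 49.8 and 46.0 CPM in siNT, a log2 fold change of 0.93 ± 0.10. ZMAT3 had 28.1, 28.4 and 29.3 CPM in Mock and 58.6, 54.7 and 46.0 CPM in siNT, a log2 fold change of 0.89 ± 0.07.

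BTG2 was now higher in siNT, with 39.9 ± 1.0 CPM against 33.0 ± 2.0 in Mock, the opposite of its order at 0 h. MDM2 had 895 ± 31.0 CPM in siNT and 955 ± 21.8 in Mock, with every siNT library lower. FDXR was at 49.6 ± 1.4 CPM in siNT and 46.3 ± 2.0 in Mock, and RRM2B at 247 ± 11.4 and 250.5 ± 11.9, with overlapping libraries for RRM2B alone. Every siNT library was higher for 7 of the 9 genes and lower for 1, where 28.6% and 28.8% of all genes tested had such an order. CDKN1A, GDF15, SESN1, TP53INP1 and ZMAT3 were the genes higher at both times.

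**Figure D2:**
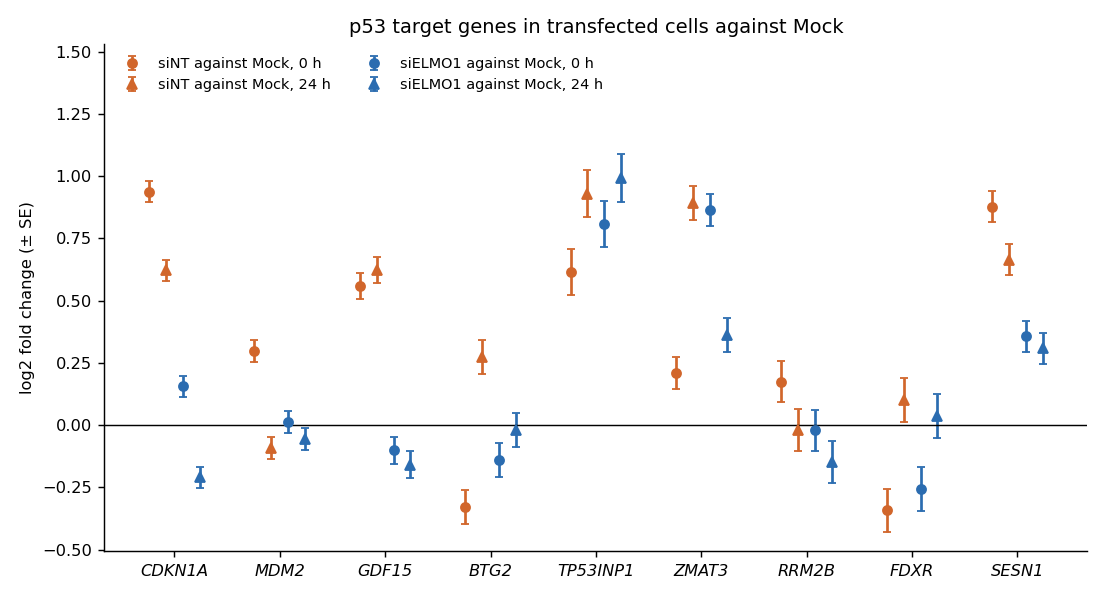
The y axis gives the log2 fold change (± SE) of each gene on the x axis, for siNT (orange) and siELMO1 (blue) against Mock, at 0 h (circles) and 24 h (triangles). CDKN1A and GDF15 lie far higher in siNT than in siELMO1. TP53INP1, ZMAT3 and SESN1 lie above 0 in all 4 comparisons. BTG2 and FDXR lie below 0 at 0 h in siNT and in siELMO1.

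The wider family was then counted, in a list of 66 other p53 targets of which 57 passed the filter on low counts. In siNT against Mock at 0 h, 30 of the 57 were higher and 12 lower by edgeR with an adjusted p under 0.05. These are 52.6% and 21.1% of the list, beside 27.6% and 24% of all genes tested. The median log2 fold change was 0.16 for the list and 0.03 for all genes. With a fold change over 2 required as well, 1 was higher and 4 were lower, beside 2.2% and 4.32% of all genes.

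At 0 h genes of arrest and feedback were higher in 7 of 7 cases, with a median log2 fold change of 0.41. The 3 targets with a role in antiviral defence (TLR3, TRIM22 and PML) were higher in 3 of 3, with a median of 0.39. Beside these groups, 27.6% of all genes were higher and 24% lower. GADD45A, a DNA damage protein that inhibits CDK1, was at 53.4 ± 1.0 CPM in Mock and 96.2 ± 3.8 in siNT, a log2 fold change of 0.85 ± 0.07 (edgeR adjusted p = 2.08e-08). CCNG1, which encodes cyclin G1, had 0.70 ± 0.07 (edgeR adjusted p = 1.28e-07), and PPM1D, a phosphatase that turns p53 signalling off, was at the low end of the group with 0.14. Among death genes 8 of 15 rose and 2 fell. The death receptor TNFRSF10A went from 23.8 ± 0.6 to 39.6 ± 0.4 CPM, a log2 fold change of 0.73 ± 0.05 (edgeR adjusted p = 2.53e-09), while PERP, a membrane protein of the desmosome, fell by 1.83 ± 0.10 (edgeR adjusted p = 1.08e-10).

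Repair genes were split the other way at 0 h, with 1 of 5 higher and 3 lower, beside 27.6% and 24% of all genes. XPC, which recognises damage in nucleotide excision repair, was at 111 CPM in Mock and 41.4 in siNT, a log2 fold change of -1.43 ± 0.07 (edgeR adjusted p = 2.2e-11). Of 11 genes of metabolism and autophagy 4 were higher and 4 lower, and of 16 other genes 7 and 3. The largest rise of the list was that of NINJ1, a membrane protein that ruptures dying cells, from 13.3 to 26.8 CPM, a log2 fold change of 1.01 ± 0.09 (edgeR adjusted p = 5.63e-08). LIF, a cytokine, rose by 0.83 ± 0.26 from a level of only 0.585 CPM (edgeR adjusted p = 0.0117), and TGFA, a ligand of the EGF receptor, fell by 1.43 ± 0.11 (edgeR adjusted p = 6.57e-09).

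A match to the p53 consensus stood near the start of 17 of the 57 genes, 29.8%. Of these 17 genes 9 were higher and 3 lower in siNT at 0 h, with a median log2 fold change of 0.16. Of the 40 without a match 21 were higher and 9 lower, with a median of 0.16. At 24 h 23 of the 57 were higher and 16 lower, 40.4% and 28.1%, beside 25.2% and 24.9% of all genes. By group, 4 of 7 genes of arrest and feedback were then higher and 2 lower, and 8 and 2 of 15 death genes. Of the 3 antiviral targets 0 were higher and 2 lower, with a median log2 fold change of -0.24. Of 5 repair genes 3 were higher and 2 lower, of 11 genes of metabolism and autophagy 3 and 4, and of 16 other genes 5 and 4. GADD45A was again higher by 0.83 ± 0.07 (edgeR adjusted p = 4.97e-08), and PHLDA3, an inhibitor of AKT, was higher by 0.72 ± 0.10 (edgeR adjusted p = 8.78e-06). TM7SF3, a membrane protein, was higher by 0.75 ± 0.05 (edgeR adjusted p = 3.07e-09). DDIT4, an inhibitor of mTORC1, was lower by 1.53 ± 0.11 on the log2 scale, from 34.0 CPM in Mock to 11.8 in siNT (edgeR adjusted p = 7.99e-09). PMAIP1 and BBC3, which encode the BH3-only death proteins NOXA and PUMA, were lower as well, from 563 to 206 CPM and from 79.0 to 35.4 CPM (edgeR adjusted p = 5.94e-09 and 2.42e-06).

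**Figure D3:**
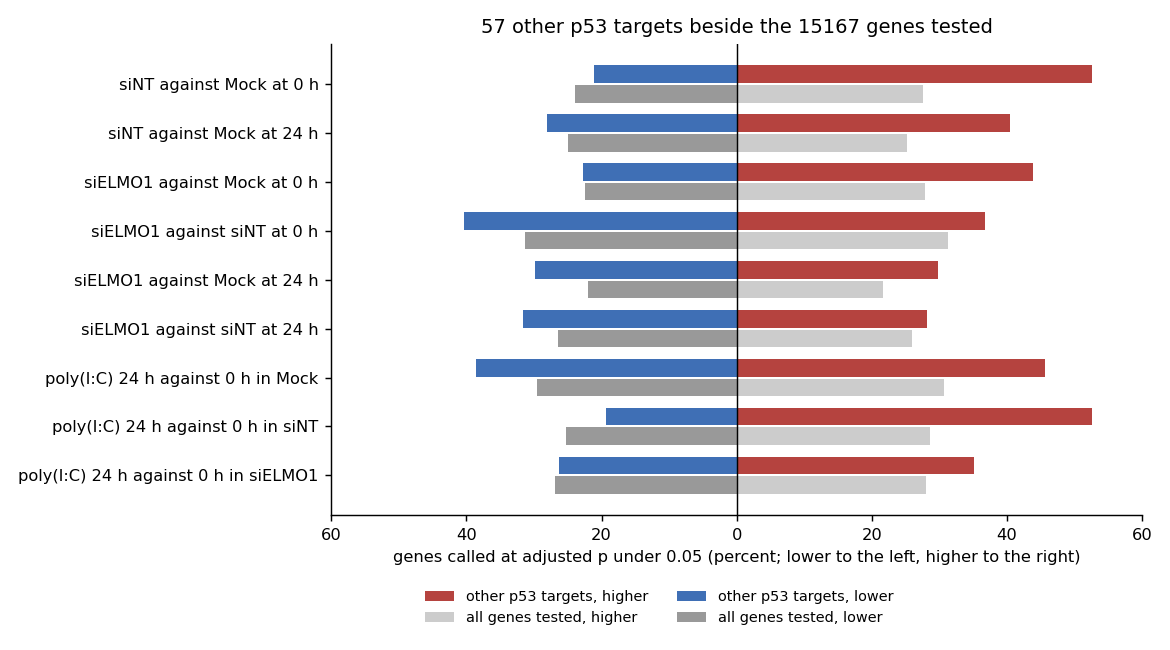
Bars give the percent of genes called at an adjusted p under 0.05 in each of 9 comparisons, higher to the right and lower to the left of 0. Coloured bars are the 57 other p53 targets and grey bars all 15167 genes tested. In siNT against Mock at 0 h 52.6% of the targets and 27.6% of all genes were higher.

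Knockdown of ELMO1 was set against each control. Tests of the 9 genes follow, and those against Mock or siNT share these libraries with the comparison that chose the genes. In siELMO1 against Mock at 0 h, CDKN1A, SESN1, TP53INP1 and ZMAT3 rose and FDXR fell, 4 and 1 of 9, beside 27.9% of all genes higher and 22.4% lower. ZMAT3 rose most, from 122, 128 and 126 CPM in Mock to 224, 229.9 and 229 CPM in siELMO1, with no overlap and a log2 fold change of 0.86 ± 0.07 (edgeR adjusted p = 4.73e-09). TP53INP1 went from 53.3 ± 4.4 to 93.1 ± 7.0 CPM, a log2 fold change of 0.81 ± 0.09 (edgeR adjusted p = 1.1e-06). SESN1 reached 34.0 ± 1.3 CPM, a rise of 0.36 ± 0.06 (edgeR adjusted p = 0.000122) that left it between Mock and siNT.

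CDKN1A was at 203, 196 and 184 CPM in siELMO1 libraries, all above Mock and far below siNT, a log2 fold change of 0.16 ± 0.04 against Mock (edgeR adjusted p = 0.00457). Scaled by library totals alone, the CDKN1A value was 0.08 (edgeR adjusted p = 0.192), and without Mock replicate 2 or 3 it was 0.12 (edgeR adjusted p = 0.0529 and 0.07), so its call rested on the scaling and on these libraries. The CDKN1A call was also lost with no filter on low counts (0.12, edgeR adjusted p = 0.114) and with only the libraries compared (0.11, edgeR adjusted p = 0.108). FDXR was spread widely in siELMO1, at 60.9, 49.1 and 44.1 CPM. Its fall by 0.26 ± 0.09 (edgeR adjusted p = 0.0205) was lost without siELMO1 replicate 2 or 3 (-0.22 and -0.16, edgeR adjusted p = 0.0759 and 0.129). MDM2, GDF15, BTG2 and RRM2B did not pass, with log2 fold changes of 0.01 ± 0.04, -0.10 ± 0.05, -0.14 ± 0.07 and -0.02 ± 0.08 (edgeR adjusted p = 0.847, 0.127, 0.102 and 0.856). Without siELMO1 replicate 1 GDF15 fell by 0.18 (edgeR adjusted p = 0.0024), and without Mock replicate 2 BTG2 fell by 0.20 (edgeR adjusted p = 0.0422).

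Against siNT at 0 h, 5 of the 9 genes were lower in siELMO1 and 2 higher, beside 31.3% of all genes in each direction. CDKN1A was lower by 0.78 ± 0.04 (edgeR adjusted p = 2.43e-11), GDF15 by 0.66 ± 0.05 (edgeR adjusted p = 6.76e-09), SESN1 by 0.52 ± 0.06 and MDM2 by 0.28 ± 0.04 (edgeR adjusted p = 9.49e-07 and 2.32e-05). In MDM2 the 3 siELMO1 libraries, at 528, 549 and 556 CPM, lay within the Mock range and below every siNT library. RRM2B was lower by 0.20 ± 0.08 at the edge of the threshold (edgeR adjusted p = 0.0495). Its libraries, at 211, 159 and 172 CPM in siELMO1 and 206, 200.4 and 215 CPM in siNT, overlapped. Leaving out siELMO1 replicate 2 or 3, or any 1 of the 3 siNT libraries, lifted the adjusted p of RRM2B over the threshold (edgeR adjusted p from 0.0576 to 0.259). ZMAT3 was higher by 0.66 ± 0.06 (edgeR adjusted p = 8.87e-08) and BTG2 by 0.19 ± 0.07 (edgeR adjusted p = 0.0233). The BTG2 call was lost without siNT replicate 1 or siELMO1 replicate 3 (edgeR adjusted p = 0.125 and 0.0887). TP53INP1 and FDXR had log2 fold changes of 0.19 ± 0.09 and 0.09 ± 0.09 (edgeR adjusted p = 0.0802 and 0.406), and that of TP53INP1 passed without siELMO1 replicate 2 (0.25, edgeR adjusted p = 0.0393).

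At 24 h the siELMO1 libraries had 277, 263 and 269 CPM of CDKN1A, below every Mock library and every siNT library. The log2 fold change of CDKN1A was -0.21 ± 0.04 against Mock (edgeR adjusted p = 0.00049) and -0.83 ± 0.04 against siNT (edgeR adjusted p = 7.13e-11). GDF15, at 162, 159 and 162 CPM in siELMO1, was also lowest there, by 0.16 ± 0.05 against Mock and 0.78 ± 0.05 against siNT (edgeR adjusted p = 0.0225 and 2.53e-09). The first of these GDF15 calls was lost without Mock replicate 2 or 3 or siELMO1 replicate 2 (edgeR adjusted p from 0.0596 to 0.0675). TP53INP1 was again higher than Mock, 52.0 ± 3.1 against 26.1 ± 4.1 CPM, a log2 fold change of 0.99 ± 0.10 (edgeR adjusted p = 2.16e-07).

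SESN1 was higher than Mock by 0.31 ± 0.06 and ZMAT3 by 0.36 ± 0.07 (edgeR adjusted p = 0.000706 and 3e-04). Both were lower than in siNT, SESN1 by 0.36 ± 0.06 and ZMAT3 by 0.53 ± 0.07 (edgeR adjusted p = 0.000129 and 3.98e-06). ZMAT3 had thus changed its place, above both controls at 0 h and between them at 24 h. BTG2 was lower than in siNT by 0.29 ± 0.07 (edgeR adjusted p = 0.00147). In all, 3 of the 9 genes were higher and 2 lower against Mock, beside 21.6% and 22% of all genes, and 0 higher and 5 lower against siNT, beside 26% and 26.5%. None of the 9 had an unadjusted p under 0.05 and a positive fold change against siNT, and neither DESeq2 nor limma-voom called one higher.

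Of the 57 other targets, 25 were higher and 13 lower in siELMO1 against Mock at 0 h, and 21 higher and 23 lower against siNT. These are 43.9% and 22.8% of the list against Mock, beside 27.9% and 22.4% of all genes, and 36.8% and 40.4% against siNT, beside 31.3% in each direction. PLK2, a polo-like kinase, rose to 442 CPM from 219.6 in Mock, a log2 fold change of 1.01 ± 0.05 (edgeR adjusted p = 1.84e-11), and CCNG1 to 221 CPM from 123 (edgeR adjusted p = 1.04e-08). SCO2, an assembly factor of cytochrome c oxidase, rose by 0.90, while PMAIP1 fell by 0.97, DDB2, which recognises ultraviolet damage, by 0.77 and the nuclease AEN by 0.62 (edgeR adjusted p = 1.21e-05, 7.03e-07, 3.68e-10 and 3e-08). Genes of metabolism and autophagy were higher in 9 of 11 cases against either control and lower in 1 against Mock and 0 against siNT, with medians of 0.54 and 0.55. Of 15 death genes 6 were higher and 5 lower against Mock, and 4 higher and 8 lower against siNT. XPC, PERP and TGFA were at 122, 19.3 and 13.5 CPM in siELMO1 and 111, 22.7 and 11.3 in Mock, and were higher than in siNT by 1.55, 1.60 and 1.68 on the log2 scale (edgeR adjusted p = 2.1e-12, 1.88e-10 and 3.28e-10). GADD45A, PMAIP1 and AEN had the largest falls against siNT, with log2 fold changes of -0.81, -0.79 and -0.78 (edgeR adjusted p = 1.6e-08, 4.97e-06 and 7.55e-10).

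At 24 h 17 of the 57 were higher and 17 lower against Mock, 29.8% in each direction beside 21.6% and 22% of all genes. Against siNT 16 were higher and 18 lower, 28.1% and 31.6%, near the 26% and 26.5% of all genes. PANK1, a kinase of coenzyme A synthesis, was higher by 0.68 against Mock and by 0.67 against siNT (edgeR adjusted p = 0.000163 and 0.000147). CCNG1 and PLXNB2, a receptor of semaphorins, were each higher than Mock by 0.64 (edgeR adjusted p = 6.03e-07 and 6.95e-09). PMAIP1, DDIT4 and the sestrin gene SESN2 were lower than Mock, with log2 fold changes of -1.39, -1.11 and -0.95 (edgeR adjusted p = 1.07e-08, 2.96e-07 and 6.54e-08). Against siNT, BBC3 was higher by 1.096 and DRAM1, a lysosomal protein of autophagy, by 0.74 (edgeR adjusted p = 4.1e-06 and 3.25e-10). TNFRSF10D, a decoy receptor for TRAIL, KITLG, the ligand of the receptor KIT, and GADD45A were lower than in siNT, with log2 fold changes of -0.88, -0.83 and -0.83 (edgeR adjusted p = 2.31e-07, 1.56e-06 and 3.88e-08).

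Proliferation genes moved beside these targets. All 10 of a list of 10 were lower in siELMO1 than in Mock at 0 h, with a median log2 fold change of -2.13, and all 10 than in siNT, with a median of -1.92. Of all genes 22.4% were lower than in Mock and 31.3% lower than in siNT. In siNT against Mock at 0 h 2 of the 10 were higher and 4 lower, beside 27.6% and 24% of all genes. The summed endothelial markers ranged from 2614 to 2864 CPM in siELMO1 at 0 h, from 1847 to 1964 in Mock and from 1867 to 1955 in siNT. Summed epithelial markers were highest in siELMO1 at 0 h as well. They ranged from 978 to 1088 CPM there, from 766 to 793 in Mock and from 814 to 818 in siNT. The part of these lists in the values of the 9 genes was not tested. In these bulk libraries, fewer cells of a kind and less RNA per cell cannot be told apart.

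With poly(I:C) some of the 9 genes rose and some fell, and BTG2 and FDXR were not called in every kind of cells. In Mock cells 4 of the 9 rose and 4 fell, beside 30.7% and 29.6% of all genes. CDKN1A rose from 174.6 ± 2.1 to 312 ± 2.7 CPM, a log2 fold change of 0.84 ± 0.04 (edgeR adjusted p = 9.28e-12). MDM2 rose from 522, 568 and 529 CPM to 979, 938 and 947 CPM, by 0.82 ± 0.04 (edgeR adjusted p = 3.15e-11). RRM2B rose by 0.45 ± 0.08 and GDF15 by 0.40 ± 0.05 (edgeR adjusted p = 0.000169 and 4.66e-06). ZMAT3 fell most, from 125 ± 3.4 to 28.6 ± 0.6 CPM, a log2 fold change of -2.13 ± 0.07 (edgeR adjusted p = 2.12e-14). TP53INP1 fell by 1.03 ± 0.10, FDXR by 0.41 ± 0.09 and SESN1 by 0.36 ± 0.06 (edgeR adjusted p = 4.39e-08, 0.00059 and 9.34e-05). BTG2 had 32.8 ± 1.3 and 33.0 ± 2.0 CPM (log2 fold change 0.01, edgeR adjusted p = 0.906). Scaled by library totals alone, the median of all genes in this comparison moved by -0.12 on the log2 scale, and no call of the 9 genes changed.

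In siNT cells CDKN1A, MDM2, GDF15, BTG2 and RRM2B rose and SESN1, TP53INP1 and ZMAT3 fell, 5 and 3 of 9, beside 28.6% and 25.2% of all genes. BTG2 rose from 24.2, 27.8 and 26.4 CPM to 38.8, 40.5 and 40.5 CPM, a log2 fold change of 0.61 ± 0.07 (edgeR adjusted p = 6.93e-07). MDM2 rose by 0.43 ± 0.04 and CDKN1A by 0.52 ± 0.04 (edgeR adjusted p = 2.51e-07 and 9.49e-09), both from a higher start than in Mock. RRM2B rose by 0.25 ± 0.08 (edgeR adjusted p = 0.0162), a call that was lost without siNT 0 h replicate 2 or siNT 24 h replicate 1 (edgeR adjusted p = 0.0595 and 0.0662). ZMAT3 fell by 1.45 ± 0.07, TP53INP1 by 0.71 ± 0.09 and SESN1 by 0.57 ± 0.06 (edgeR adjusted p = 5.98e-12, 4.54e-06 and 5.01e-07).

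The siELMO1 cells share no library with the comparison that chose the genes. There CDKN1A, MDM2, GDF15 and RRM2B rose and SESN1, TP53INP1 and ZMAT3 fell, 4 and 3 of 9, beside 28% and 26.9% of all genes. MDM2 rose from 544 ± 14.7 to 918 ± 34.2 CPM, by 0.75 ± 0.04 (edgeR adjusted p = 1.44e-10), and CDKN1A by 0.47 ± 0.04 (edgeR adjusted p = 2.95e-08). ZMAT3 fell from 224, 229.9 and 229 CPM to 34.4, 37.0 and 39.0 CPM, a log2 fold change of -2.63 ± 0.07 (edgeR adjusted p = 1.68e-15). GDF15 rose by 0.34 ± 0.05 and RRM2B by 0.32 ± 0.08 (edgeR adjusted p = 3.45e-05 and 0.00347), and TP53INP1 fell by 0.84 ± 0.09 and SESN1 by 0.41 ± 0.06 (edgeR adjusted p = 5.53e-07 and 2.7e-05). BTG2 and FDXR had 0.13 ± 0.07 and -0.12 ± 0.09 (edgeR adjusted p = 0.123 and 0.281). Without 1 library each could pass, BTG2 without siELMO1 24 h replicate 1 (0.19, edgeR adjusted p = 0.0301) and FDXR without siELMO1 0 h replicate 3 (-0.22, edgeR adjusted p = 0.0353). CDKN1A, MDM2, GDF15 and RRM2B thus rose and ZMAT3, TP53INP1 and SESN1 fell in all 3 kinds of cells. RRM2B was the least firm of these. Its siELMO1 libraries overlapped, at 159 to 211 CPM at 0 h and 204 to 247 CPM at 24 h, and its siNT call was lost in some settings.

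**Figure D4:**
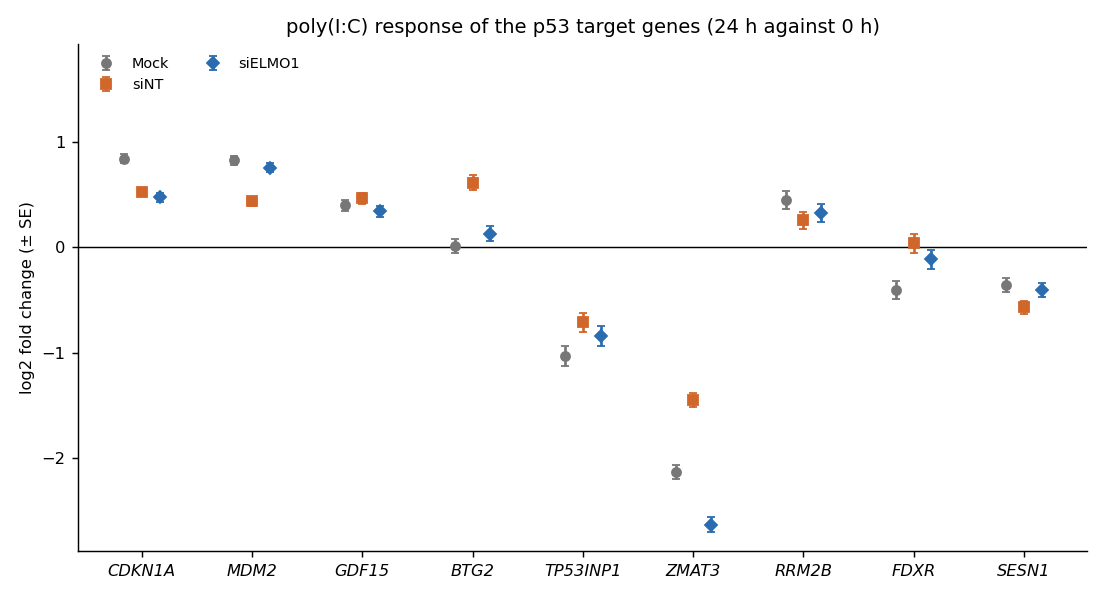
The y axis gives the log2 fold change (± SE) from 0 h to 24 h with poly(I:C) of each gene on the x axis, in Mock (grey circles), siNT (orange squares) and siELMO1 (blue diamonds). CDKN1A, MDM2, GDF15 and RRM2B lie above 0 and TP53INP1, ZMAT3 and SESN1 below 0 in all 3, with ZMAT3 lowest, from -1.45 to -2.63.

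The size of the response differed for some genes when tested as an interaction. CDKN1A rose less in siELMO1 than in Mock, by 0.37 ± 0.06 on the log2 scale (edgeR adjusted p = 0.000165). ZMAT3 fell further in siELMO1 than in Mock, by 0.50 ± 0.09, and than in siNT, by 1.18 ± 0.09 (edgeR adjusted p = 0.000678 and 2.54e-08). MDM2 rose by 0.32 ± 0.06 more, and BTG2 by 0.48 ± 0.10 less, in siELMO1 than in siNT (edgeR adjusted p = 0.000678 and 0.000802). Between siELMO1 and Mock 0 of the 9 genes had a higher and 2 a lower response, beside 13.8% and 14.6% of all genes. The largest positive difference was that of FDXR, 0.29 ± 0.12 (edgeR adjusted p = 0.0873). It passed by DESeq2 (0.31, adjusted p = 0.0426), as 1 of 9, and without siELMO1 0 h replicate 1 (0.44, edgeR adjusted p = 0.00114) or siELMO1 24 h replicate 3 (0.36, edgeR adjusted p = 0.0365). Between siELMO1 and siNT 1 was higher and 2 were lower, beside 16.7% and 17.8%.

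Few of these changes were over 2-fold. With that size required beside the adjusted p, none of the 9 genes was called in siELMO1 against either control. The value nearest to it was that of TP53INP1 against Mock at 24 h, 0.99 on the log2 scale. Of all genes tested, 3.29% were then higher and 4.5% lower against Mock at 0 h, and 8.38% and 6.22% against siNT. At 24 h these shares were 3.29% and 1.8% against Mock, and 4.83% and 2.48% against siNT. With poly(I:C) 2 of the 9 genes, ZMAT3 and TP53INP1, fell by more than 2-fold in Mock, and ZMAT3 alone did in siNT and in siELMO1. None of the 9 rose by as much, where 8.6% of all genes were higher and 5.92% lower in Mock, 6.45% and 2.97% in siNT, and 7.71% and 3.68% in siELMO1. Of the response differences that of ZMAT3 between siELMO1 and siNT was over 2-fold, as 1 of 9, beside 3.83% of all genes with a higher and 2.37% with a lower response. Between siELMO1 and Mock 0 of 9 were, beside 2.75% and 1.22%. Of the 57 other targets 0 were higher and 4 lower by this rule in siNT against Mock at 24 h, beside 2.89% and 3.83%.

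The other targets also moved both ways with poly(I:C). In Mock 26 of 57 rose and 22 fell, 45.6% and 38.6% beside 30.7% and 29.6% of all genes. In siNT 30 rose and 11 fell, 52.6% and 19.3% beside 28.6% and 25.2%. In siELMO1 20 rose and 15 fell, 35.1% and 26.3%, near the 28% and 26.9% of all genes. PMAIP1 rose in Mock from 50.03 to 563 CPM, a log2 fold change of 3.49 ± 0.11 (edgeR adjusted p = 2.04e-14), and by 2.22 in siNT and 3.075 in siELMO1 (edgeR adjusted p = 1.27e-11 and 1.59e-13). LIF rose by 2.36 in siNT and 3.10 in siELMO1 (edgeR adjusted p = 3e-07 and 1.46e-08). All 3 targets with a role in antiviral defence rose in each kind of cells. TLR3, the receptor of poly(I:C), went from 17.2 to 148 CPM in Mock, from 24.7 to 125 in siNT and from 19.9 to 156 in siELMO1 (edgeR adjusted p = 1.77e-13, 1.27e-11 and 4.53e-13). TRIM22, an antiviral ubiquitin ligase, rose by 3.085 in Mock (edgeR adjusted p = 7.79e-17). These 3 genes are known as interferon-stimulated genes as well. TNFRSF10D fell in all 3, to 15.2, 24.4 and 13.3 CPM from 80.7, 87.7 and 98.6 (edgeR adjusted p = 1.06e-13, 5.78e-12 and 1.34e-14). PERP fell by 0.96 in Mock and by 0.98 in siELMO1 (edgeR adjusted p = 1.23e-07 and 1.47e-07). TM7SF3 fell by 0.81 in Mock, CCNG1 by 0.66 and RPS27L, a relative of a ribosomal protein, by 0.46 in siNT, and KITLG by 0.56 in siELMO1 (edgeR adjusted p = 1.92e-10, 2.13e-07, 7.97e-07 and 8.94e-05).

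SESN1 and MDM2 are each transcribed from separate starts, which the matrix of transcripts allowed to be told apart. A count of transcripts is an estimate that divides shared reads, and the depth behind a rare transcript is small. SESN1 has a start at position 109094846 of chromosome 6 (upstream) and one at 109009555 (downstream), the gene being on the minus strand. Transcripts from the downstream start held 22.1, 22.2 and 20.6 CPM in Mock at 0 h and 43.7, 41.8 and 43.2 CPM in siNT at 0 h. Those from the upstream start had 4.62 ± 0.82 CPM in Mock and 5.59 ± 1.93 in siNT, with overlapping libraries. The difference of SESN1 between siNT and Mock was therefore in counts of the downstream start. At 24 h that start was at 11.9 ± 0.5 CPM in Mock, 26.3 ± 1.2 in siNT and 19.2 ± 1.0 in siELMO1, without overlap. Its share of the SESN1 counts lay between 77.2 and 84.8% in Mock libraries at 0 h and between 50.04 and 63.3% at 24 h.

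MDM2 has a start at position 68808177 of chromosome 12 and another within its intron 1, at 68809002, which is known as the promoter that p53 drives. The match to the p53 consensus shown above ends at 68808942, just before this intron 1 start. Transcripts from the intron 1 start made up 5.90 ± 0.20% of the MDM2 counts in Mock at 0 h, 5.44 ± 0.48% in siNT and 5.70 ± 2.06% in siELMO1, ranges that overlapped. After poly(I:C) the share was 9.92 ± 1.90% in Mock, 9.41 ± 0.82% in siNT and 7.67 ± 0.29% in siELMO1, each above the libraries of the same cells at 0 h. In CPM the intron 1 start went from 31.9 ± 2.1 to 94.5 ± 16.4 in Mock, and the upstream start from 508 ± 22.9 to 860 ± 35.9. Most of the added MDM2 counts were thus assigned to the upstream start. With 3 libraries against 3 an exact permutation test cannot give a two-sided p under 0.1, so no p is given for these shares. The transcript of FDXR with the most counts held between 0.702% and 52.8% of its counts in single libraries, and its starts were not compared.

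**Figure D5:**
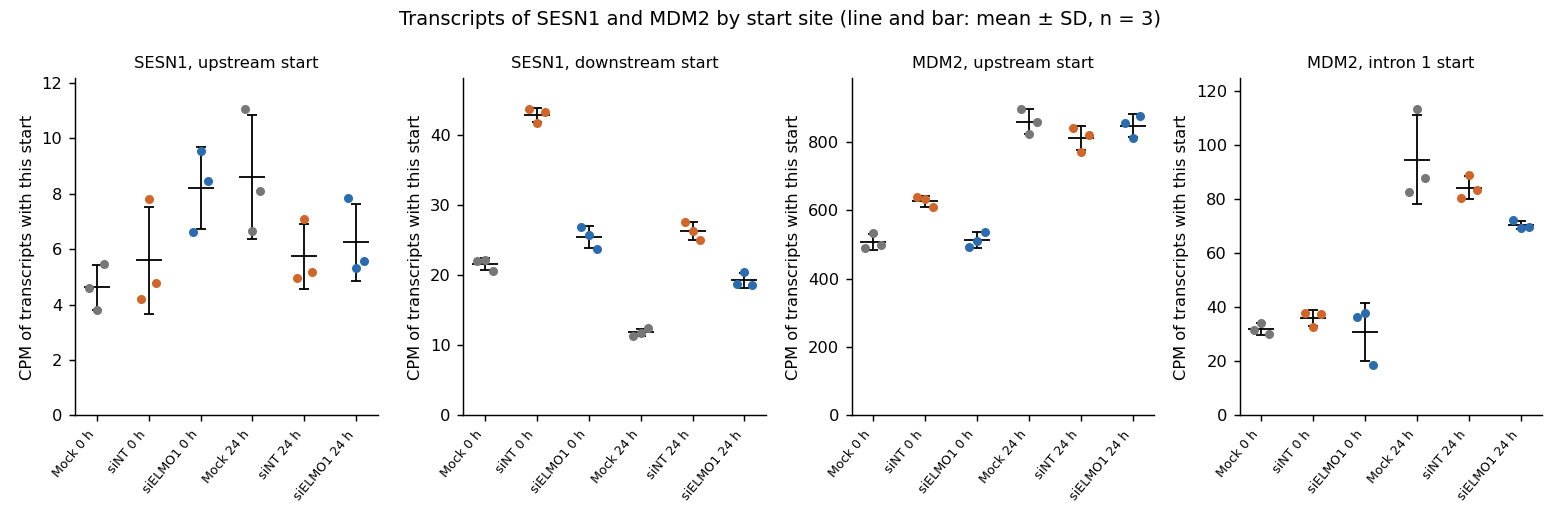
Panels plot CPM of transcripts from the upstream and downstream start of SESN1 and from the upstream and intron 1 start of MDM2, by condition, each with its own y axis from 0. Points are libraries, and the line and bar give the mean ± SD (n = 3). The downstream start of SESN1 stands at 42.9 CPM in siNT and 21.6 in Mock at 0 h, and the intron 1 start of MDM2 is higher at 24 h than at 0 h in all 3 kinds of cells.

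Across the 18 libraries the 9 genes did not move as 1 group. The correlation of log2(CPM + 1) with CDKN1A was 0.97 for GDF15, 0.76 for RRM2B and 0.73 for MDM2. It was 0.36 for BTG2, 0.20 for SESN1, -0.28 for TP53INP1, -0.49 for FDXR and -0.51 for ZMAT3. TP53INP1 correlated with ZMAT3 at 0.86 and with SESN1 at 0.80, and MDM2 with ZMAT3 at -0.93. These values are Pearson's r over libraries that fall into 6 conditions and share their poly(I:C) contrast, and they describe the pattern only. Of all genes tested, the 5 most like CDKN1A were TNFRSF10A (0.979), PSMB7 (0.975), GDF15 (0.967), LIMA1 (0.962) and RFFL (0.962). LIMA1 had 21.5 CPM in Mock, 61.3 in siNT and 28.7 in siELMO1 at 0 h, and 41.9, 89.5 and 49.2 CPM at 24 h.

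The genes lie at the following places in GRCh38, and some share sequence with genes of the other strand. CDKN1A is at chr6:36676460-36687337 and overlaps the noncoding DINOL on the other strand, which ends before the start of the main CDKN1A transcript. MDM2 is at chr12:68808177-68845544 and overlaps the end of the gene CPM, a carboxypeptidase, on the other strand, and 3 noncoding genes or pseudogenes. TP53INP1 is at chr8:94925972-94949378 within NDUFAF6, again on the other strand. GDF15 at chr19:18374731-18389176 holds the microRNA gene MIR3189. SESN1, at chr6:108984309-109094846, has a noncoding gene on its other strand. BTG2 at chr1:203305491-203309602, ZMAT3 at chr3:178960121-179072215, RRM2B at chr8:102204502-102238961 and FDXR at chr17:74862497-74873031 overlap no other gene of GENCODE 44. The library kit keeps strand, and whether the counting used it is not given in the sources used here, so counts of overlapping genes may hold reads of their partners.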

How the data were processed

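RNA of EA.hy926 cells in 6 groups of 3 libraries, which the study calls biological replicates, was sequenced from poly(A)-selected stranded libraries. The authors aligned reads to GRCh38 with STAR, and StringTie and its script gave estimated counts for each gene and transcript of GENCODE 44. The values as deposited are whole numbers that are not normalized. The read length given to that script, its use of strand and the tool versions are not given in the sources used here, and a read pair may count more than once. Groups were taken from the sample labels.

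A gene was tested if its counts summed to 100 or more and it reached 1 CPM in some library. Counts were fitted in 1 quasi-likelihood model over all 18 libraries with edgeR 4.0.16 in R 4.3.3 with TMM factors (0.958 to 1.06) and 12 residual degrees of freedom. The biological coefficient of variation was 12.2%. p-values are two-sided and were adjusted by the Benjamini-Hochberg method over the 15167 genes, and a call is an adjusted p under 0.05. The scripts were tested on simulated data. The authors' own fit with limma was not repeated. TPM was computed from the transcript counts and transcript lengths, and sequences were read from GRCh38. Library totals were 40374756 to 73850946, and the smallest value of the 9 genes was 1126 counts (SESN1 in a Mock library at 24 h).

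The genes and lists were chosen with earlier results of these data known. The lists of other p53 targets, p53 regulators, proliferation genes, ATF4 stress genes and cell markers come from general knowledge. The genes named are the 9 targets, ELMO1, the 5 genes most like CDKN1A, and in each comparison the 3 other targets with the largest rise and the 3 with the largest fall among those called, with a mean of at least 1 CPM and no overlap of libraries, as well as members given to describe a list. One gene under this rule is not reported here. Libraries with the same replicate number deviated together most evenly for siNT and Mock at 24 h (r of 0.203, 0.27 and 0.342 over 9644 genes). At 24 h r was 0.0408, 0.22 and 0.418 for siELMO1 and siNT, and 0.0172, 0.198 and 0.376 for siELMO1 and Mock. The sample labels state no pairing, and libraries of unlike number were not compared. Whether the numbers pair the libraries is thus not known. The alternatives were DESeq2 1.42.0, limma-voom (limma 3.58.1), scaling by library totals alone, filterByExpr or no filter, a replicate block, only the libraries compared, a fold change over 2, protein-coding transcripts alone, and each library left out in turn.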

Additional observations from a re-analysis of the deposited data

Results flagged for a closer look

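The poly(I:C) responses of the 9 genes were compared between siELMO1 and each control by an interaction in the edgeR model, and 5 such differences passed. Of all genes, 13.8% had a higher and 14.6% a lower response in siELMO1 than in Mock, and 16.7% and 17.8% than in siNT. Nothing about the 9 genes as a set is read from their count. Between siELMO1 and Mock, the log2 difference of the responses was -0.37 for CDKN1A (edgeR adjusted p = 0.000165) and -0.50 for ZMAT3 (edgeR adjusted p = 0.000678). Between siELMO1 and siNT it was 0.32 for MDM2 (edgeR adjusted p = 0.000678), -0.48 for BTG2 (edgeR adjusted p = 0.000802) and -1.185 for ZMAT3 (edgeR adjusted p = 2.54e-08). ZMAT3 already differed between the groups at 0 h. It was at 125 CPM in Mock, 145 in siNT and 228 in siELMO1 then, and at 28.6, 53.1 and 36.8 CPM after poly(I:C). CDKN1A in siELMO1 stood above Mock before poly(I:C) (194.5 against 174.6 CPM) and below it after (269.8 against 312 CPM). The part of these starting levels in the differences was not tested.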

How the results depend on the processing

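Of 768 values under other settings of the analysis, most of them log2 fold changes of the 9 genes, 10 changed sign, 11 calls were lost and 8 gained, and 20 values given without a test moved by more than the spread between libraries. Those that changed sign were small. With DESeq2, library totals and no filter on low counts the BTG2 response to poly(I:C) in Mock was -0.00606, -0.11 and -0.00874. MDM2 in siELMO1 against Mock at 0 h was -0.0695 with library totals, -0.0275 without a filter and -0.0309 with only the libraries compared. With library totals MDM2 was -0.00928 in siELMO1 against siNT at 24 h, FDXR was -0.00283 for poly(I:C) in siNT, and the siELMO1 and Mock responses differed by 2.72e-05 for GDF15 and by 0.0107 for SESN1. Of the 9 genes, library totals gave 3 lower in siELMO1 against Mock at 0 h in place of 1 (GDF15 and BTG2 added), which follows from the scaling. Without a filter 1 was higher in siELMO1 against siNT at 0 h in place of 2, and 1 lower in siELMO1 against Mock at 24 h in place of 2, as BTG2 and GDF15 missed the threshold, and CDKN1A missed it in siELMO1 against Mock at 0 h (0.12, edgeR adjusted p = 0.114). With only the libraries compared, CDKN1A (0.11, edgeR adjusted p = 0.108) and FDXR (-0.30, edgeR adjusted p = 0.0554) missed the threshold in siELMO1 against Mock at 0 h. RRM2B missed it in siELMO1 against siNT at 0 h with library totals, filterByExpr, no filter and only the libraries compared (edgeR adjusted p from 0.0525 to 0.137), and for poly(I:C) in siNT with library totals (edgeR adjusted p = 0.057). The cause of these was not tested.

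With the replicate block, 1 of the 9 genes had a higher response in siELMO1 than in Mock in place of 0 (FDXR, 0.30, edgeR adjusted p = 0.0405), as with DESeq2, where it was 1 too. The block added TP53INP1 to those higher in siELMO1 than in siNT at 0 h (0.19, edgeR adjusted p = 0.0435) and changed no other call of the 9 genes. For siNT and Mock at 24 h, where libraries of the same number deviated together most evenly, the block gave 23 other targets higher and 19 lower in place of 23 and 16.

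With a fold change over 2 required, 0 of the 9 genes were called in siELMO1 against Mock or siNT at 0 h or at 24 h, 0 were higher with poly(I:C) in Mock, siNT or siELMO1, and 2, 1 and 1 were lower. Of the response differences 0 were lower between siELMO1 and Mock, beside 1.22% of all genes. Between siELMO1 and siNT 0 were higher and 1 lower, beside 3.83% and 2.37%. Of the other targets 1 was higher and 4 were lower in siNT against Mock at 0 h, and 0 and 4 at 24 h. Of all genes 2.2% were higher and 4.32% lower at 0 h, and 2.89% and 3.83% at 24 h. In siELMO1 against Mock 1 and 0 of the other targets were called at 0 h, beside 3.29% and 4.5% of all genes. At 24 h these were 0 and 2, beside 3.29% and 1.8%. Against siNT they were 4 and 0 at 0 h, beside 8.38% and 6.22%, and 1 and 0 at 24 h, beside 4.83% and 2.48%. With poly(I:C) 15 of the other targets were higher and 1 lower in Mock, 10 and 1 in siNT, and 9 and 1 in siELMO1. Of all genes 8.6% were higher and 5.92% lower in Mock, 6.45% and 2.97% in siNT, and 7.71% and 3.68% in siELMO1.

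With 1 library left out, counts of the 9 genes ran from 0 to 2 for those lower in siELMO1 against Mock at 0 h, from 1 to 2 at 24 h, from 1 to 3 for those higher in siELMO1 against siNT at 0 h, and from 0 to 1 for higher responses in siELMO1 than in Mock. Signs changed for MDM2 (-0.041 to 0.034) and RRM2B (-0.15 to 0.063) in siELMO1 against Mock at 0 h, BTG2 (-0.075 to 0.043) and FDXR (-0.019 to 0.11) at 24 h, and FDXR in siELMO1 against siNT at 0 h (-0.058 to 0.19) and 24 h (-0.119 to 0.00705). For poly(I:C) they changed for BTG2 in Mock (-0.056 to 0.054) and FDXR in siELMO1 (-0.22 to 0.029). The response differences between siELMO1 and Mock ran from -0.11 to 0.018 for GDF15, -0.21 to 0.0016 for RRM2B and -0.12 to 0.048 for SESN1, and between siELMO1 and siNT from -0.016 to 0.196 for RRM2B. None of these was called in the full set. The 30 other targets higher in siNT at 0 h were 23 to 28 with a library left out.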

Other observations

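Lists beside the p53 targets moved in these comparisons too. Of 6 genes of the ATF4 stress response, which raises some p53 targets such as GDF15 as well, 1 was higher and 2 were lower in siNT against Mock at 0 h, and all 6 were lower at 24 h (median -1.24 on the log2 scale). Of all genes 27.6% were higher and 24% lower in siNT against Mock at 0 h, and 24.9% lower at 24 h. In siELMO1 all 6 were lower than in Mock at 24 h, with a median of -1.92, beside 22% of all genes. With poly(I:C) 5 of the 6 rose in Mock, 2 rose and 1 fell in siNT, and 3 rose and 1 fell in siELMO1. Of all genes 30.7% rose in Mock, 28.6% rose and 25.2% fell in siNT, and 28% rose and 26.9% fell in siELMO1.

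The 10 proliferation genes fell in 9 cases in Mock and in 10 in siNT with poly(I:C), with medians of -0.57 and -1.02, and all 10 rose in siELMO1, with a median of 0.92. Of all genes 29.6% fell in Mock, 25.2% fell in siNT and 28% rose in siELMO1. CDKN1A rose in all 3 kinds of cells. At 24 h 8 of the 10 proliferation genes were lower in siNT than in Mock and all 10 in siELMO1 than in Mock, beside 24.9% and 22% of all genes.

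Of 9 tested genes that regulate p53 or its partners, 3 were higher and 2 lower in siNT against Mock at 0 h, and 2 and 4 at 24 h. These are 33.3% and 22.2% at 0 h, beside 27.6% and 24% of all genes. At 24 h they are 22.2% and 44.4%, beside 25.2% and 24.9%. With poly(I:C) 4 rose and 3 fell in Mock, 4 and 2 in siNT, and 4 and 2 in siELMO1. In Mock these are 44.4% and 33.3%, beside 30.7% and 29.6% of all genes. In siNT and in siELMO1 they are 44.4% and 22.2%, beside 28.6% and 25.2%, and 28% and 26.9%. The log2 fold changes of the list in siNT against Mock ran from -1.04 to 0.72 at 0 h and from -1.97 to 1.14 at 24 h, so that it held falls as well as rises. The genes with the largest rise at each time were MDM4 and HIPK2. They were chosen after their values were seen, so these are given as a description without a test. MDM4, a relative of MDM2 that restrains p53, was at 13.2 ± 0.6 CPM in Mock, 21.7 ± 1.9 in siNT and 13.2 ± 1.3 in siELMO1 at 0 h. It was thus highest in siNT (siNT against Mock 0.72 ± 0.08). HIPK2, a kinase that acts on p53, was at 122 ± 14.9 CPM in siNT at 24 h, and at 55.3 ± 11.0 in Mock and 63.0 ± 3.2 in siELMO1, after similar levels of 123 to 129 CPM at 0 h. Its response to poly(I:C) differed between siNT and Mock by 1.21 ± 0.17, the highest of the list, whose values ran from -1.39 to 1.21.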
